A study of Bos taurus with 15 samples.

Results

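A set of 10 genes of NODAL signalling was followed across bovine (Bos taurus) blastocysts at day 7, and all 10 were present among the 17259 genes of the deposited table. They were chosen by name, with earlier results of these data known: the ligands NODAL and GDF3, the co-receptor CRIPTO (also called TDGF1), the secreted inhibitor LEFTY2, the proprotein convertases FURIN and PCSK6, the receptors ACVR1B and ACVR2B, and the transducers SMAD2 and FOXH1. The levels of CRIPTO and NODAL were among the results known when they were chosen, so the differences of these genes between groups are given as a description.

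NODAL is a secreted growth factor of the TGF-beta family. It is made as a precursor that convertases such as FURIN and PCSK6 cleave, and the mature ligand acts through a receptor pair of type I (ACVR1B) and type II (ACVR2B) once CRIPTO, a protein anchored to the cell surface, is present. The receptors phosphorylate SMAD2, which enters the nucleus and binds DNA with partners such as FOXH1; in the mouse, targets include NODAL itself and the LEFTY genes, whose products block the ligand. In mammalian embryos the pathway is best known in the epiblast, the pluripotent cells that give rise to the fetus.

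The data comprise 3 groups of 5 libraries of polyadenylated RNA. Blastocysts of the automatic group were cultured for 7 days in SOF medium after an automated removal of the cumulus, the cells that surround the oocyte; those of the manual group were cultured in the same medium after the cumulus was removed by hand; and those of the in vivo group were collected at day 7 without culture being named. Cumulus was removed at the zygote stage, and both cultured groups together are called in vitro (10 libraries). No age or breed of donor is given, and the design text counts 5 blastocysts in each group. Between 50 and 100 ng of total RNA went into a library, per the labels, and whether blastocysts were pooled for a library is not stated, so that n = 5 and each SD are over libraries. Separate cultures, donors or collection days are not stated for the 5 libraries of a group, so a p-value here speaks of the spread from library to library, part of which may be technical.

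Library totals lay between 17963944 and 41974214 counts. Between 6977 and 8547 genes reached 10 counts in 5 libraries (automatic 2 and 4, manual 2, in vivo 2 and 4), against 9900 to 12611 genes in the other 10; these 5 are called low-detection libraries. Mitochondrial transcripts took 8.18% to 14.4% of the counts in low-detection libraries and 3.26% to 9.99% in the others. Levels are in CPM (each count divided by its library size, times 1e6) after scaling of the library sizes by the TMM method, and are compared between libraries for 1 gene at a time, since they are not corrected for transcript length. A gene was called where the quasi-likelihood test of edgeR over all genes kept gave a Benjamini-Hochberg adjusted p under 0.05.

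NODAL, the ligand, was found almost entirely in blastocysts collected in vivo. It had 0 counts in each of the 5 automatic libraries. In manual libraries 1 to 5 it lay at 1.78, 0, 0, 0 and 0 CPM, and in the in vivo libraries at 9.54, 0, 7.22, 2.15 and 2.31 CPM. Counts were thus present in 0 of 5 automatic, 1 of 5 manual and 4 of 5 in vivo libraries. Manual 1 lay below the 4 in vivo libraries that had counts and above in vivo 2, so the groups overlapped.

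Summed over 5 libraries each, the gene had 0 counts in the automatic group, 58 in the manual group and 884 in the in vivo group. A count of 0 over the automatic libraries allows up to 0.0194 CPM (3 counts over the summed library sizes), which makes NODAL at least 293-fold lower there than the 5.69 CPM of the pooled in vivo libraries. Such limits cover counting error only. In vivo 2, the in vivo library without counts, is a low-detection library in which 3 counts correspond to 0.2296 CPM.

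GDF3, a second ligand of the family that also uses CRIPTO in the mouse, was present in all groups. It lay at 17.8, 36.6, 51.6, 0 and 25.7 CPM in automatic libraries 1 to 5, at 8.29, 0, 36.5, 2.64 and 12.1 CPM in manual libraries 1 to 5 and at 40.8, 0.306, 35.2, 24.8 and 77.7 CPM in in vivo libraries 1 to 5. The groups overlapped, and the lowest value in each group came from a low-detection library (automatic 4, manual 2 and in vivo 2). The difference between in vitro and in vivo was log2 -1.01 ± 1.22 (SE), with a 95% interval of -3.56 to 1.53.

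In the ARS-UCD2.0 annotation, GDF3 is followed by DPPA3 and then NANOG in gene order. DPPA3, a maternal and pluripotency-associated protein, averaged 947 ± 621 CPM in the automatic group, 959.8 ± 1035 CPM in the manual group and 846 ± 1281 CPM in the in vivo group (SD, n = 5 each). NANOG, a transcription factor of the epiblast, averaged 49.04 ± 32.3 CPM in the automatic group, 54.5 ± 32.01 CPM in the manual group and 264 ± 111 CPM in the in vivo group (SD, n = 5 each). All 5 automatic and all 5 manual libraries lay below the in vivo libraries for NANOG, as 0.276% of the genes tested did, while GDF3 and DPPA3 overlapped between the groups.

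CRIPTO, the co-receptor, was lower in every cultured library than in every library collected in vivo. It lay at 2.94, 0, 0, 0 and 1.21 CPM in automatic libraries 1 to 5 and at 2.98, 0, 29.7, 0.346 and 0 CPM in manual libraries 1 to 5. In vivo libraries 1 to 5 held 76.2, 444, 41.9, 163 and 138 CPM. Every in vitro library lay below every in vivo library: the highest in vitro value was 29.7 CPM (manual 3) and the lowest in vivo value 41.9 CPM (in vivo 3).

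CRIPTO had no counts in 3 of 5 automatic and 2 of 5 manual libraries, and counts in all 5 in vivo libraries. The group means were 0.8298 ± 1.29 CPM in the automatic group, 6.596 ± 12.95 CPM in the manual group and 173 ± 159 CPM in the in vivo group (SD, n = 5 each). On the log2 scale the in vitro libraries differed from the in vivo libraries by -6.20 ± 1.45 (SE), with a 95% interval of -9.24 to -3.15 and a range of -7.68 to -5.46 over fits without 1 library. Of the 11578 genes tested, 32 (0.276%) were lower in each of the 10 in vitro libraries than in each of the 5 in vivo libraries; nothing is read from CRIPTO being among them, since its difference was known when it was chosen.

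The order was the same without the low-detection libraries. CRIPTO then averaged 1.38 ± 1.48 CPM in 3 automatic libraries, 8.24 ± 14.3 CPM in 4 manual libraries and 85.5 ± 48.9 CPM in 3 in vivo libraries (SD), and the log2 difference was -4.67. The highest in vivo value, 444 CPM, came from in vivo 2, which had no counts of NODAL and 0.306 CPM of GDF3. The TMM factor of in vivo 2, 0.543, was the lowest of all libraries, and a low factor raises CPM. With library totals in place of TMM the log2 difference of CRIPTO over all libraries was -5.67.

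LEFTY2, the inhibitor of NODAL, followed a similar order with some overlap. It lay at 5.38, 0, 12.5, 0.498 and 3.88 CPM in automatic libraries 1 to 5, at 12.96, 0, 24.2, 0 and 0 CPM in manual libraries 1 to 5 and at 28.96, 102, 31.2, 9.19 and 35.2 CPM in in vivo libraries 1 to 5. Of 10 in vitro libraries 7 lay below the lowest in vivo library, and automatic 3, manual 1 and manual 3 lay above it. For 2.72% of the genes tested at least 7 of the 10 lay below every in vivo library; nothing is read from LEFTY2 being among them. LEFTY2 had no counts in automatic 2, manual 2, manual 4 and manual 5.

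Group means of LEFTY2 were 4.45 ± 5.03 CPM in the automatic group, 7.43 ± 10.9 CPM in the manual group and 41.4 ± 35.6 CPM in the in vivo group (SD, n = 5 each), and the log2 difference between in vitro and in vivo was -2.85 ± 1.45 (SE) with an interval of -5.88 to 0.19. With library totals in place of TMM that difference was -2.37. The low-detection libraries include in vivo 2 (102 CPM, raised by its low TMM factor) and in vivo 4 (9.19 CPM). Without them LEFTY2 averaged 31.8 ± 3.17 CPM in 3 in vivo libraries and 8.41 ± 8.73 CPM in 7 in vitro libraries (SD). These 7 reached 24.2 CPM, and nothing is read from the order of so few libraries. The log2 difference was then -1.95. LEFTY1, its close relative, was not among the gene names of the data, and how reads shared between such paralogs were assigned is not stated.

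**Figure D1:**
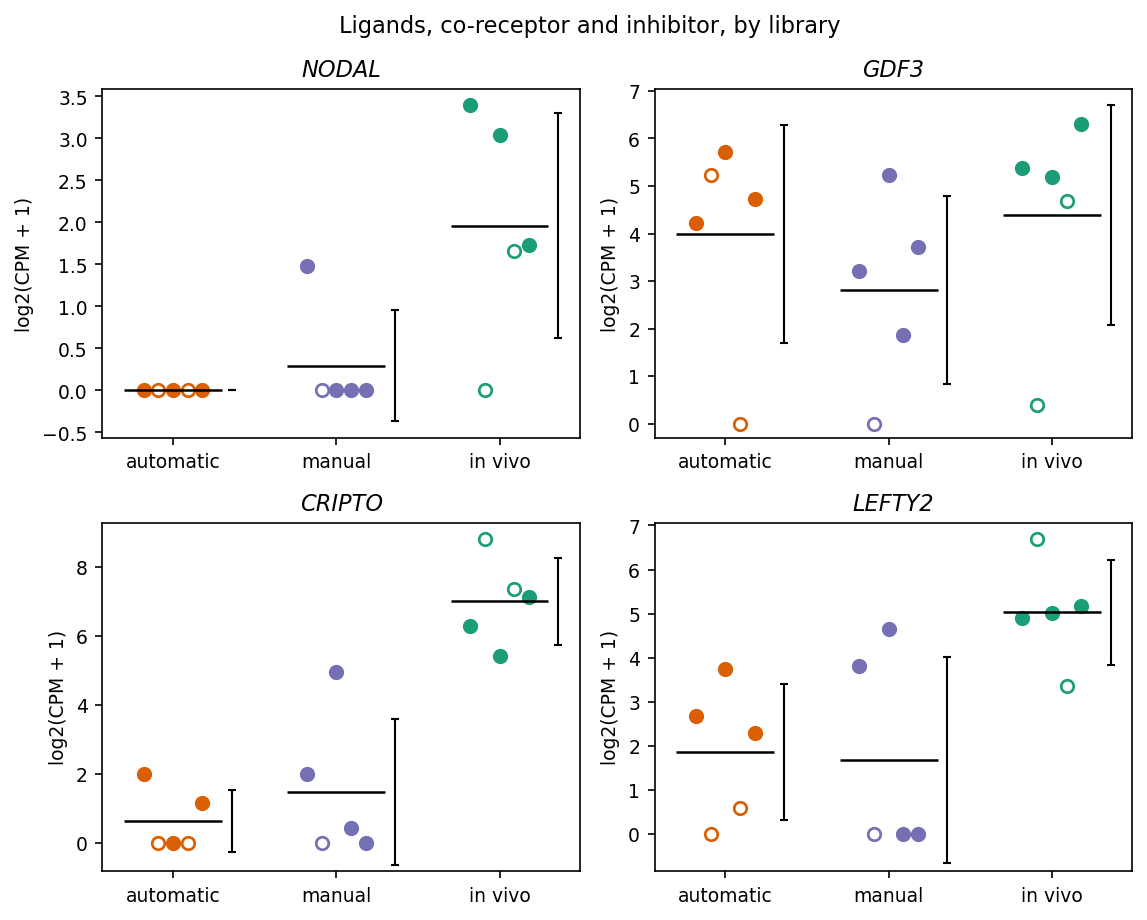
Levels of NODAL, GDF3, CRIPTO and LEFTY2 as log2(CPM + 1) in each of 5 automatic, 5 manual and 5 in vivo libraries; open circles are low-detection libraries, horizontal lines are means and the bars beside them are ± 1 SD on that scale. The 5 in vivo libraries of CRIPTO lie between 41.9 and 444 CPM, all above the 10 in vitro libraries, while NODAL is at 0 in all 5 automatic libraries.

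FURIN, the widely expressed convertase, was found in 14 of 15 libraries. It lay at 11.97, 0, 19.8, 20.3 and 4.17 CPM in automatic libraries 1 to 5, at 18.7, 13.5, 23.8, 10.7 and 7.74 CPM in manual libraries 1 to 5 and at 35.5, 4.898, 28.4, 10.2 and 9.28 CPM in in vivo libraries 1 to 5. The 3 groups overlapped. The log2 difference between in vitro and in vivo was -0.45 ± 1.01 (SE), with an interval of -2.56 to 1.67.

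PCSK6, a convertase that cleaves NODAL in the mouse, was near 0 in all libraries but manual 3. That library had 278 counts (8.79 CPM). The other 14 libraries had 0 to 9 counts each, at most 0.281 CPM.

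Of the receptors, ACVR1B (a type I receptor of activin and NODAL, also called ALK4) was hardly detected. It had 401 counts in in vivo 1 (9.09 CPM) and 38 in in vivo 3 (0.777 CPM), 7 counts in manual 1, 1 count in automatic 3 and 0 in the other 11 libraries. Neither PCSK6 nor ACVR1B had enough counts to be kept for the main test. In a fit without the filter on low counts neither was called.

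ACVR2B, a type II receptor, was present in 14 of 15 libraries. It lay at 12.3, 0.273, 38.4, 63.5 and 8.69 CPM in automatic libraries 1 to 5, at 9.77, 0, 21.97, 17.1 and 46.2 CPM in manual libraries 1 to 5 and at 19.01, 6.66, 34.4, 15.2 and 13.9 CPM in in vivo libraries 1 to 5. In vitro libraries lay on both sides of the in vivo range: 2 below all in vivo libraries and 3 above them. The log2 difference was 0.28 ± 1.11 (SE), and its sign turned under other settings, to -0.035 without the low-detection libraries.

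SMAD2, the receptor-activated transducer, had higher values in most cultured libraries than in those collected in vivo. It was at 70.4, 0, 45.8, 213 and 86.02 CPM in automatic libraries 1 to 5, at 56.7, 35.6, 12.4, 139 and 64.3 CPM in manual libraries 1 to 5 and at 39.1, 5.204, 44.3, 9.19 and 31.1 CPM in in vivo libraries 1 to 5. Of 10 in vitro libraries 7 lay above every in vivo library; automatic 2, manual 2 and manual 3 did not, and automatic 2 had no counts. At least 7 of the 10 lay above every in vivo library for 3.32% of the genes tested.

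Its means were 82.96 ± 79.4 CPM in the automatic group, 61.7 ± 47.9 CPM in the manual group and 25.8 ± 17.7 CPM in the in vivo group (SD, n = 5 each). The log2 difference between in vitro and in vivo was 1.47 ± 1.02 (SE), with an interval of -0.66 to 3.61 that includes 0 and a range of 1.11 to 1.75 over fits without 1 library. Without the low-detection libraries the means were 67.9 ± 39.1 CPM in 7 in vitro libraries and 38.2 ± 6.63 CPM in 3 in vivo libraries (SD), and the log2 difference was 0.83. It was 0.23 by limma-voom and 0.68 with quality weights.

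FOXH1, the DNA-binding partner of SMAD2, was present in all 15 libraries, with 1 count in in vivo 2. It lay at 8.25, 53.4, 10.5, 19.2 and 12.3 CPM in automatic libraries 1 to 5, at 10.7, 1.45, 20.8, 3.61 and 10.3 CPM in manual libraries 1 to 5 and at 21.05, 0.0765, 24.1, 31.1 and 14.1 CPM in in vivo libraries 1 to 5. The groups overlapped, and the log2 difference was -0.38 ± 0.96 (SE), with an interval of -2.38 to 1.63.

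**Figure D2:**
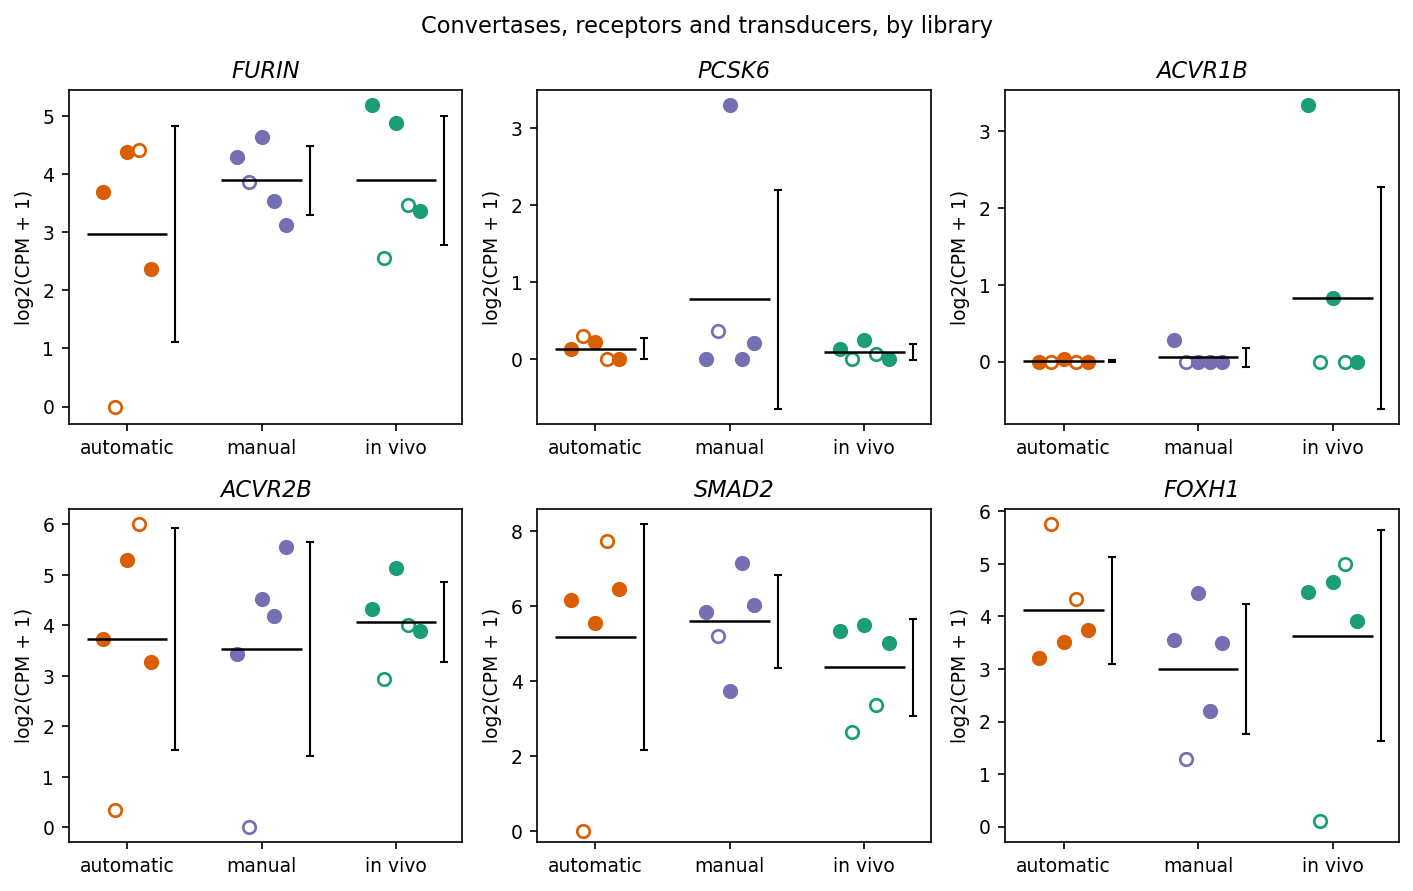
Levels of FURIN, PCSK6, ACVR1B, ACVR2B, SMAD2 and FOXH1 as log2(CPM + 1) in each of 5 automatic, 5 manual and 5 in vivo libraries; open circles are low-detection libraries, horizontal lines are means and the bars beside them are ± 1 SD on that scale. FURIN, ACVR2B and FOXH1 overlap between the groups, PCSK6 stands at 8.79 CPM in manual 3 alone, and 7 of 10 in vitro libraries exceed all in vivo libraries for SMAD2.

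By edgeR, 0 of the 8 genes kept for the test were called between in vitro and in vivo blastocysts, where 0.0173% of all genes were called. An unadjusted p under 0.05 was found for 2 of the 8 (NODAL and CRIPTO) and for 6.13% of all genes; nothing is read from these 2, whose levels were known when they were chosen. Limma-voom called CRIPTO, among 0.13% of all genes, and with quality weights it called CRIPTO, LEFTY2 and NODAL, among 0.924%. Nothing is read from these calls either, since the genes were chosen with earlier results of these data known. DESeq2 called none of the 8 and 0.743% of all genes. NODAL passed the filter through 4 in vivo libraries and 1 manual library, so it had to differ: its calls are no test, and its fitted fold change, which rests on an automatic group at 0, is not given. Lower levels of a transcript in a whole blastocyst can come from fewer cells of a type or from less RNA per cell, which cannot be told apart here.

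Between automatic and manual denudation, the comparison named in the title of the series, edgeR also called 0 of these 8 genes, and 0% of all genes; an unadjusted p under 0.05 was found for 171 genes (1.48%). Of the 8, only NODAL was among these 171, on the counts of manual 1 alone and after passing the filter through the in vivo libraries, so that its p is no test of denudation. DESeq2 called 9 genes (0.0777%), limma-voom 0 (0%) and limma-voom with quality weights 1 (0.00864%), none of them among the 10. The log2 differences were -2.98 ± 1.70 for CRIPTO, 1.14 ± 1.46 for GDF3, -0.74 ± 1.74 for LEFTY2 and 1.15 ± 1.14 for FOXH1 (SE). The values for CRIPTO and LEFTY2 rested on manual 3, without which they were 0.00507 and 0.48. That for GDF3 was 2.21 without manual 3, and that for FOXH1 0.41 without automatic 2.

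FURIN, ACVR2B and SMAD2 differed between automatic and manual by -0.41 ± 1.19, 0.37 ± 1.27 and 0.43 ± 1.10 (SE). Their intervals ran from -2.89 to 2.08, from -2.30 to 3.05 and from -1.87 to 2.73 in that order, each on both sides of 0. For NODAL, 0 counts in the automatic group against the 58 counts of manual 1 set a limit of at least 21.9-fold lower. This limit covers counting error only, not the spread between libraries. The other manual libraries were at 0 too, so no difference between the denudations is read from it.

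**Figure D3:**
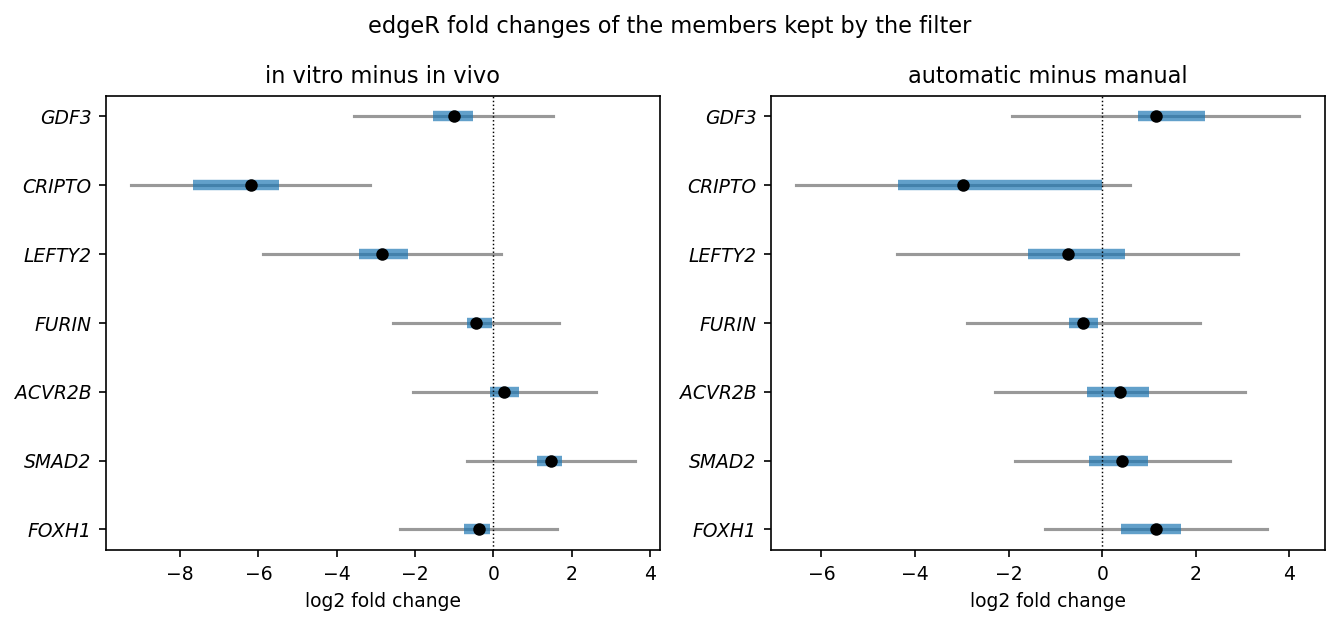
Log2 fold changes by edgeR of 7 genes kept by the filter, in vitro minus in vivo (left) and automatic minus manual (right); points are estimates from all 15 libraries, thin lines 95% intervals and thick lines the range over 15 fits without 1 library. CRIPTO lies at -6.20 on the left, with an interval from -9.24 to -3.15, and all 7 intervals on the right include 0.

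Other genes of the NODAL, activin and related pathways were taken from a list of 55 symbols, of which 50 were in the table and 34 were kept for the test. Between in vitro and in vivo, 23 of the 34 lay above 0 and 11 below, and of all 11578 genes tested 5580 lay above 0. The median log2 difference was 0.35, against -0.04 for all genes. Some of the 34, such as BMP15 and FSTL3, passed the filter through cultured libraries, where they were high. Nothing is therefore read from these signs, here or for each role below. EdgeR called none of the 34. An unadjusted p under 0.05 was found for 2 (NANOG and SMAD5), and for 6.13% of all genes. Of the 10 ligands, 4 were kept, all 4 above 0. BMP15 and GDF9, growth factors of the oocyte, differed by log2 3.97 ± 2.09 and 2.78 ± 1.76 (SE), and BMP15 averaged 3.33 ± 3.13 CPM in the automatic group, 4.63 ± 6.87 CPM in the manual group and 0.254 ± 0.502 CPM in the in vivo group (SD, n = 5 each). BMP15 had 0 to 15 counts in the in vivo libraries and passed the filter through the cultured ones, so its difference is no test. Without in vivo 2 its fitted difference was 6.74, a value that rests on the 6 counts of in vivo 3 on the in vivo side. For GDF9 the difference ranged from 1.92 to 4.78 over fits without 1 library, highest without in vivo 3.

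The activin subunits INHBA and INHBB, the inhibin alpha subunit INHA, TGFB1, TGFB3 and GDF1 were too low to be kept. Of the inhibitors, BAMBI (a pseudoreceptor) and FSTL3 were kept, and CER1, a NODAL antagonist, had 0 counts in every library. FSTL3, a secreted protein that binds activin, averaged 1.83 ± 2.04 CPM in the automatic group, 14.3 ± 6.84 CPM in the manual group and 0.2904 ± 0.649 CPM in the in vivo group (SD, n = 5 each). Its 5 manual libraries lay above all 5 in vivo libraries, as for 0.76% of the genes tested, and above all 5 automatic libraries. The log2 difference was 4.09 ± 1.97 between in vitro and in vivo (edgeR adjusted p = 0.816) and -2.95 ± 1.95 between automatic and manual (SE). Limma-voom with quality weights called it between in vitro and in vivo (6.29). FSTL3 passed the filter through the cultured libraries, where it was high, so this call is no test. In vivo 3 was the 1 in vivo library with counts, and without it the fitted difference was 10.18, a value that depends on the prior count. Automatic and manual libraries did not overlap, in one direction or the other, for 0.665% of the genes tested.

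PCSK5, another convertase, averaged 2.26 ± 2.12 CPM in the automatic group, 23.5 ± 24.4 CPM in the manual group and 34.03 ± 28.3 CPM in the in vivo group (SD, n = 5 each). Its 5 automatic libraries lay below all 5 in vivo libraries, as for 1.16% of the genes tested, whereas manual libraries spread from 0 to 50.5 CPM. It differed by log2 -2.22 ± 1.23 between in vitro and in vivo (edgeR adjusted p = 0.922) and by -3.37 ± 1.63 between automatic and manual (SE). PCSK7, a further member of that family, differed by -0.38 ± 1.10 and -0.92 ± 1.29 in the same contrasts.

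Of the other receptors, 6 of 8 were kept, with 3 above and 3 below 0. ACVR2A, the second type II receptor of the pathway, averaged 22.9 ± 19.8 CPM in the automatic group, 31.1 ± 12.1 CPM in the manual group and 6.66 ± 5.67 CPM in the in vivo group (SD, n = 5 each). Of the 10 in vitro libraries, 9 (all 5 manual and 4 automatic) lay above all in vivo libraries, and automatic 2 had no counts. At least 9 of 10 did so for 0.743% of the genes tested. The log2 difference was 1.999 ± 1.27 (SE, edgeR adjusted p = 0.986). ACVR1C, the alternative type I receptor, had 0 counts in every library. TGFBR3 and ACVR1, receptors for TGF-beta and BMP ligands, differed between automatic and manual by -1.23 ± 1.34 and 1.02 ± 0.95 (SE).

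All 16 SMADs, partners and modulators were kept, 11 above and 5 below 0. SMAD4, the common partner of the receptor-activated SMADs, averaged 78.3 ± 71.9 CPM in the automatic group, 71.6 ± 42.7 CPM in the manual group and 98.3 ± 89.3 CPM in the in vivo group (SD, n = 5 each). SMAD3, the close relative of SMAD2, averaged at most 0.749 CPM in any group. SMAD5 and SMAD6, an effector and an inhibitor of BMP signalling, were the pair with the smallest p for in vitro against in vivo, at log2 3.21 ± 1.49 and -3.04 ± 1.55 (SE, edgeR adjusted p = 0.805 and 0.875). ZFYVE9, which brings SMAD2 to the receptor, and SKIL, a repressor of SMAD targets, differed between automatic and manual by -3.71 ± 1.87 and -2.97 ± 1.82.

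Of 11 targets known from the mouse or from cultured cells, 4 were kept. NANOG differed by log2 -2.35 ± 0.49 between in vitro and in vivo (SE, edgeR adjusted p = 0.191), and no in vitro library reached the in vivo range. It was called by DESeq2 (adjusted p = 0.00399), by limma-voom (adjusted p = 0.0268) and by limma-voom with quality weights (adjusted p = 0.00131). These called 0.743%, 0.13% and 0.924% of all genes in that order. Nothing is read from the calls of NANOG, since the list that holds it was chosen with earlier results of these data known. OTX2, a homeobox factor, lay at 0.43 ± 0.47 (SE), and averaged 118 ± 56.4 CPM in the automatic group, 104 ± 23.8 CPM in the manual group and 82.5 ± 52.7 CPM in the in vivo group (SD, n = 5 each). EOMES, LHX1, MIXL1, TBXT, FOXA2 and FGF5, genes of gastrulation and later lineages, were too low to be kept. PMEPA1, a feedback target of TGF-beta signalling, differed by -1.34 ± 2.09 between automatic and manual.

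**Figure D4:**
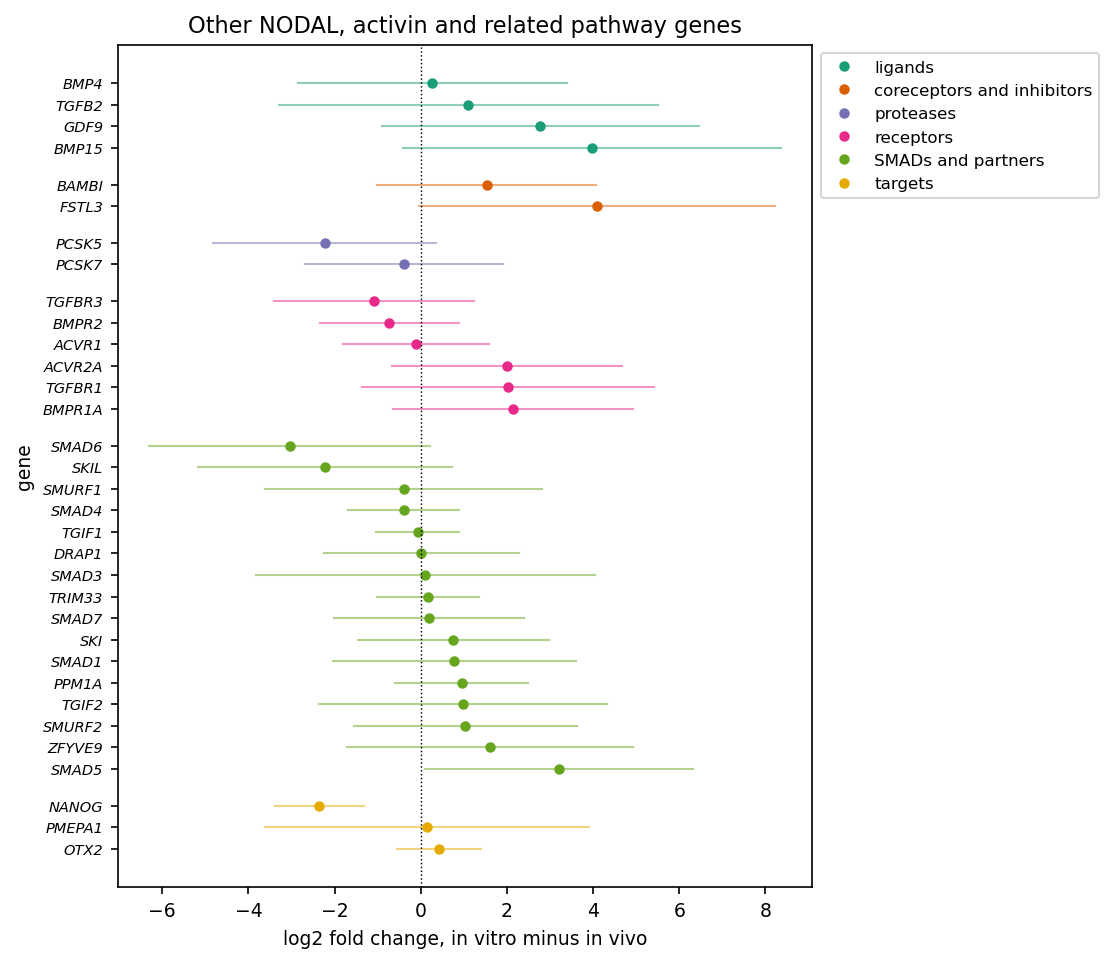
Log2 fold changes, in vitro minus in vivo, of 33 of the 34 other pathway genes kept by the filter, ordered by role and then by size; points are edgeR estimates and lines 95% intervals. NANOG lies at -2.35 and SMAD5 at 3.21, the 2 genes whose interval leaves out 0, and no gene was called.

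Markers of the epiblast did not all follow CRIPTO, LEFTY2 and NODAL. Of 14 epiblast markers 13 were in the table and 12 were kept, 7 above and 5 below 0 between in vitro and in vivo. Of all 11578 genes tested, 5580 lay above 0. The 5 below were NANOG, PRDM14, SALL4, DPPA4 and LIN28A, and the 7 above POU5F1, SOX2, DPPA3, TFCP2L1, KLF4, ESRRB and ZFP42. An unadjusted p under 0.05 was found for NANOG and ZFP42, and for 6.13% of all genes. Nothing is read from these counts, since the list was chosen with earlier results of these data known. Their summed level ranged from 1909.7 to 4560.2 CPM in automatic, from 1826 to 4921 CPM in manual and from 1599 to 4522 CPM in in vivo libraries, a sum to which DPPA3 and ZFP42 contributed most. POU5F1 averaged 319 ± 164 CPM in the automatic group, 288 ± 139.8 CPM in the manual group and 208 ± 134 CPM in the in vivo group (SD, n = 5 each), and SOX2 34.6 ± 33.1 CPM in the automatic group, 19.4 ± 9.32 CPM in the manual group and 11.2 ± 5.06 CPM in the in vivo group (SD, n = 5 each). PRDM14, a pluripotency factor, averaged 54.1 ± 38.01 CPM in the automatic group, 24.4 ± 21.1 CPM in the manual group and 97.6 ± 70.9 CPM in the in vivo group (SD, n = 5 each). FGF4, an epiblast ligand, had counts in 1 in vivo library alone. The part of epiblast cell number in the differences of CRIPTO, LEFTY2 and NODAL was not tested.

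The labels give the cells as blastomera of day 7 blastocysts, and markers of the other blastocyst lineages were present. The summed level of 12 trophectoderm markers in the table ranged from 5082 to 14876 CPM in automatic, from 8716 to 35212 CPM in manual and from 15246 to 31553 CPM in in vivo libraries. That of 11 hypoblast markers ranged from 1906 to 5649, from 1959 to 4043 and from 1755 to 5346 CPM in the same order. The 11 cumulus and granulosa markers summed to at most 43.2, 138 and 224 CPM, with FOXL2 at 0 in every library, and the 10 oocyte markers to at most 363, 195 and 225 CPM. Of the trophectoderm markers kept, 8 of 11 lay below 0 between in vitro and in vivo, as did 5998 of all 11578 genes tested. An unadjusted p under 0.05 was found for 5 of the 11, against 6.13% of all genes: the keratins KRT8, KRT18 and KRT19 and the factor ASCL2, all below 0, and the factor TFAP2C, above 0. Between automatic and manual 10 of 11 lay below 0, as did 6129 of all 11578 genes tested. Such a p was found there for 3 (KRT18, KRT19 and PTGS2), against 1.48% of all genes. Nothing is read from these counts, since the marker lists were chosen with earlier results of these data known. EdgeR called none of these markers, and their part in the results for CRIPTO, LEFTY2 and NODAL was not tested.

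**Figure D5:**
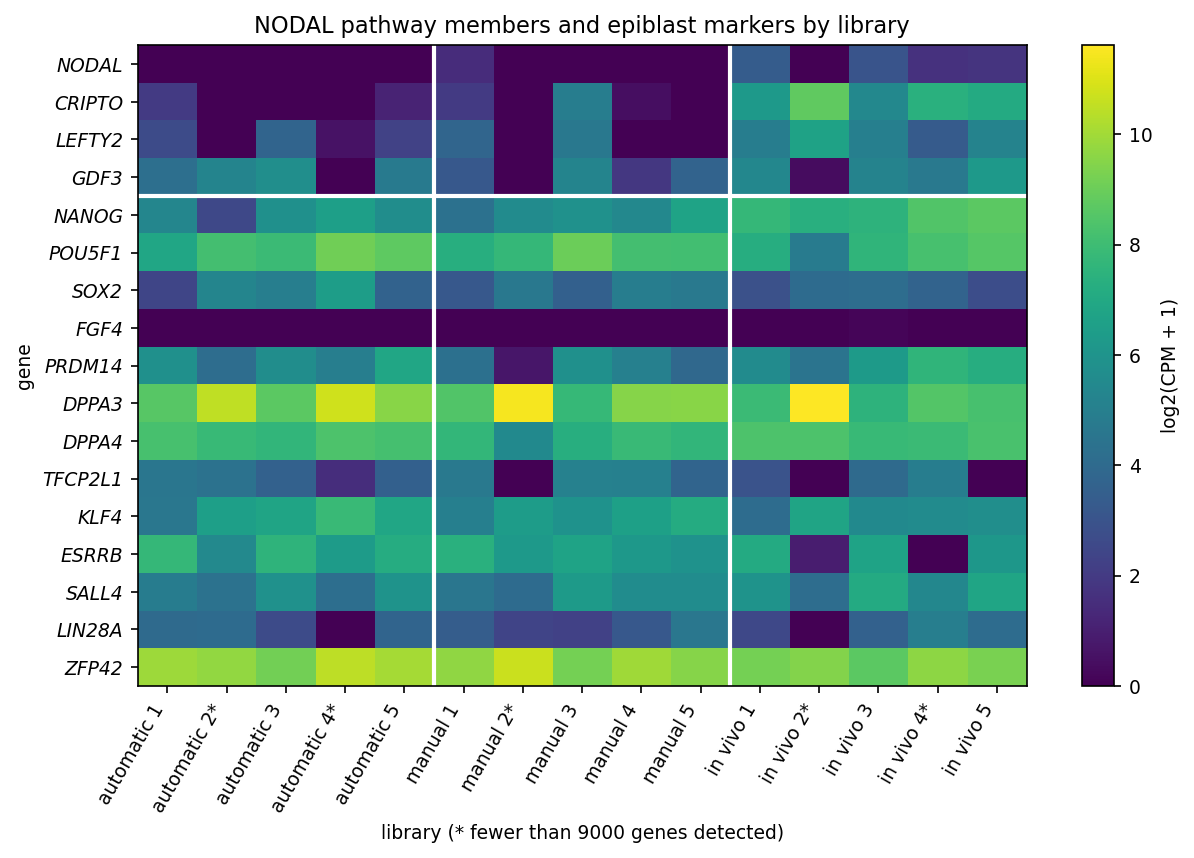
Heat map of log2(CPM + 1) for NODAL, CRIPTO, LEFTY2 and GDF3 (upper 4 lines) and 13 epiblast markers (lower lines) in each library; columns run from automatic through manual to in vivo, and stars mark low-detection libraries. CRIPTO and NANOG are brighter in all 5 in vivo columns than in any of the 10 in vitro columns, whereas ZFP42 is bright in all 15 libraries.

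The genes most like each member over the 15 libraries were sought among kept genes with a mean of at least 5 CPM, by Spearman's rho of log2(CPM + 1), as a description. For CRIPTO they were LAP3, an aminopeptidase (rho = 0.91), AP3B1, an adaptor of vesicle traffic (rho = 0.91), and DNMT3A, a DNA methyltransferase (rho = 0.91). Over the 10 in vitro libraries alone, rho with CRIPTO was 0.72 for LAP3, 0.82 for AP3B1 and 0.76 for DNMT3A. For LEFTY2 they were EFNA1, an ephrin (rho = 0.94), SDR39U1 (0.93) and the kinase TYK2 (0.93).

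For GDF3 the closest was MDK, the growth factor midkine (rho = 0.94), and for SMAD2 it was LSM14A, an RNA-binding protein of processing bodies (rho = 0.96). FOXH1 was closest to CRTAP (rho = 0.88), ACVR2B to AGO1, an Argonaute protein (rho = 0.87), and FURIN to TBRG4 (rho = 0.87). The number of detected genes also varied between the libraries, and its rho with the members ran from -0.0036 for FOXH1 to 0.66 for ACVR1B, with 0.08 for CRIPTO, 0.25 for LEFTY2, 0.39 for GDF3 and 0.45 for FURIN.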

How the data were processed

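Polyadenylated RNA of day 7 blastocysts was sequenced in 15 libraries, prepared strand-specifically with adaptors that carry molecular identifiers, per the labels' protocols. The deposited table holds estimated counts, 1 whole number per gene and library, with no common total. The submitters' processing notes name FastQC, fastp and kallisto but no version or setting. Genome build, transcript set and the handling of molecular identifiers: not given in the sources used here. No coordinates are therefore printed. Of 17259 gene names, 17059 matched symbols of ARS-UCD2.0, used for names and neighbours alone, and 1 empty line without a name was left out. Within a group every pair of libraries differed beyond sampling noise (the smallest chi-square was 172 times its degrees of freedom).

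Counts were rounded, which changed 0 values, and tested in R 4.3.3 with edgeR 4.0.16 (filterByExpr, 11578 genes kept; TMM; robust estimateDisp and glmQLFit; glmQLFTest), all 15 libraries in 1 fit with a mean per group, for the mean of automatic and manual minus in vivo and for automatic minus manual. Each standard error was derived from the log2 fold change and its F statistic (absolute change over root F), and 95% intervals use the test's degrees of freedom. The scripts were tested on simulated data. The 10 genes, the gene lists and the split at 9000 detected genes were chosen with earlier results of these data known. The rule for named genes took all 10, and from each role of the pathway list every called gene or otherwise the 2 with the smallest p per contrast, and the 3 genes most alike for each of the 7 with a mean of at least 5 CPM. Genes outside this rule (FSTL3 and ACVR2A by library, SMAD3, SMAD4, CER1, ACVR1C, DPPA3 and the genes below the filter) were named after their values were seen. One gene that the rule takes is not reported here. Alternatives were other scalings, filters, tests, a replicate block, a covariate and libraries left out.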

Additional observations from a re-analysis of the deposited data

Results flagged for a closer look

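A single library stood far from the other 4 of its group for 6 of the 10 genes, by a gap above Dixon's 95% critical value for 5 samples (0.71 of the range). In all 42 groups were examined for 14 genes, of which chance would flag about 1 in 20 if values were normally distributed. That rate does not hold for groups mostly at 0: where the other 4 libraries are at 0, any count is marked. NODAL stood at 1.78 CPM in manual 1, with 0 in the other 4 manual libraries. CRIPTO stood at 29.7 CPM in manual 3, the nearest manual library being at 2.98 CPM. PCSK6 stood at 8.79 CPM in the same library. LEFTY2 stood at 102 CPM in in vivo 2. ACVR1B stood at 0.0242 CPM in automatic 3 (1 count, below the 0.0726 CPM of 3 counts), 0.215 CPM in manual 1 and 9.09 CPM in in vivo 1. FOXH1 stood at 53.4 CPM in automatic 2. Of the neighbouring genes, DPPA3 stood at 2765 CPM in manual 2 and 3135 CPM in in vivo 2. Automatic 2, manual 2 and in vivo 2 are low-detection libraries.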

How the results depend on the processing

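The number of genes called between in vitro and in vivo, 2 by edgeR, was 0 with library totals in place of TMM, 7 with detected genes as a covariate, 7 without the low-detection libraries, 15 by limma-voom, 86 by DESeq2 and 107 by limma-voom with quality weights, and ranged from 0 to 7 over fits without 1 library (7 without manual 3, 2 without automatic 4, 0 otherwise). Between automatic and manual it was 0 by edgeR, 1 without the low-detection libraries, 1 by limma-voom with quality weights and 9 by DESeq2, and 0 in every fit without 1 library. The replicate number as a block gave 8 and 0 calls. In their deviations from the group means, same-numbered libraries correlated by 0.00137 to 0.38, over 0.1 in 8 of 15 pairs. Of 15 libraries, 8 correlated best with their own number. The main fit has no block because the labels do not say that the numbers pair libraries, and a link by number was not tested. With the block the log2 differences between in vitro and in vivo were -8.67 for CRIPTO and -5.29 for LEFTY2. Library totals moved the median log2 difference of all genes for in vitro against in vivo from -0.04 to 0.10; the signs of the 8 members kept were the same there and with RLE factors in both contrasts.

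For in vitro against in vivo, CRIPTO passed by limma-voom (-8.74, adjusted p = 0.0063), and CRIPTO and LEFTY2 with quality weights (adjusted p = 0.00378 and 0.0464 by limma). NODAL passed there too, with no p given since the filter kept it through the in vivo libraries. Nothing is read from these passes, since the genes were chosen with earlier results of these data known. NANOG passed by DESeq2 and by limma-voom with and without weights. Nothing is read from that either, since its list was also chosen with earlier results known. FSTL3 passed with weights, which is no test, since the filter kept it through the cultured libraries. When each library was left out in turn, CRIPTO had an edgeR adjusted p from 0.0954 to 0.697. The sign turned for ACVR2B by limma-voom (-1.30), with quality weights (-0.54), with the block (-0.94) and without low-detection libraries (-0.035), and for PCSK7 by limma-voom (0.28) and with the block (0.29); without 1 library these ranged from -0.0794 to 0.66 and from -0.68 to 0.046.

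For automatic against manual the sign turned by limma-voom for LEFTY2 (2.01), SMAD2 (-1.32) and GDF9 (0.0562). With quality weights it turned for LEFTY2 (3.86), SMAD2 (-0.0478), GDF9 (0.61) and PCSK7 (0.0417), and with the block for LEFTY2 (1.03), SMAD2 (-0.19) and OTX2 (-0.0703). Without low-detection libraries it turned for ACVR2B (-0.24), SMAD2 (-0.00613), FOXH1 (-0.11), BAMBI (-0.38), PCSK7 (0.0279) and ACVR1 (-0.45). Without 1 library the ranges were -4.37 to 0.00507 for CRIPTO, -1.59 to 0.48 for LEFTY2, -0.33 to 1.01 for ACVR2B, -0.28 to 0.99 for SMAD2, -1.76 to 0.90 for GDF9 and -2.002 to 0.76 for PMEPA1. For BAMBI the lowest was 0.33, without automatic 4. NODAL gave no value without manual 1, where both groups were at 0. The cause of these turns was not tested.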

Other observations

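Genes of BMP signalling, a related branch of the TGF-beta family that uses SMAD1 and SMAD5, gave values on both sides of 0 and edgeR called none of them. BMP4, a ligand, averaged 5.6003 ± 4.83 CPM in the automatic group, 7.94 ± 9.66 CPM in the manual group and 5.52 ± 7.45 CPM in the in vivo group (SD, n = 5 each). BMPR1A, a type I receptor, averaged 41.98 ± 57.7 CPM in the automatic group, 41.99 ± 33.5 CPM in the manual group and 9.48 ± 8.31 CPM in the in vivo group (SD, n = 5 each), with a log2 difference between in vitro and in vivo of 2.15 ± 1.33 (SE, edgeR adjusted p = 0.9798). SMAD5 averaged 7.41 ± 9.55 CPM in the automatic group, 21.1 ± 29.1 CPM in the manual group and 1.34 ± 1.701 CPM in the in vivo group (SD, n = 5 each), and 7 of 10 in vitro libraries exceeded the highest in vivo value. At least 7 of 10 did so for 3.32% of the genes tested. SMAD6 averaged 0.444 ± 0.607 CPM in the automatic group, 0.117 ± 0.217 CPM in the manual group and 1.93 ± 2.33 CPM in the in vivo group (SD, n = 5 each). BAMBI averaged 26.1 ± 44.5 CPM in the automatic group, 5.05 ± 3.43 CPM in the manual group and 3.98 ± 2.22 CPM in the in vivo group (SD, n = 5 each), and differed between automatic and manual by 2.37 ± 1.37. That difference rested on automatic 4, at 106 CPM, and was 0.33 without it.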
